A study of Mus musculus with 12 samples.

Results

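The genes described here are 10 members of the autophagy machinery and its regulation: the WIPI genes Wipi1, Wipi2 and Wdr45, the lipid supply genes Atg2a, Atg2b and Atg9a, and the p53-linked genes Trp53inp1, Trp53inp2, Dram1 and Dram2. They were taken by symbol from a count table of 23366 gene symbols, and each is represented by its transcript row with the highest total. All 10 were among the 13882 genes that passed a filter on low counts. RNA-seq was done on mouse embryonic fibroblasts (MEFs), connective tissue cells grown from embryos, of strain C57BL/6 at passages 3 to 5. The 4 groups, with 2 libraries each, were Carm1 KO cells starved of glucose for 18 h (KO-GS), Carm1 KO cells in rich medium (KO), wild-type cells starved for 18 h (WT-GS) and wild-type cells in rich medium (WT). Rich medium was DMEM with 10% FBS, and starvation medium was glucose-free DMEM with 10% dialyzed FBS, so the media differed in the serum as well as in glucose. The rich libraries are labelled 0 h, so time in culture and medium cannot be told apart. The labels do not say how many lines or embryos each genotype came from, nor that replicates were separate cultures, and p-values therefore measure only the spread between these libraries. The study asked what CARM1, a methyltransferase that modifies arginines of histone H3, contributes to autophagy during starvation.

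In autophagy a membrane grows around cytoplasmic material, closes into an autophagosome and fuses with the lysosome, where the content is degraded. WIPI proteins are propeller-shaped proteins that bind phosphatidylinositol 3-phosphate on the growing membrane. ATG2 proteins carry lipids into that membrane from the endoplasmic reticulum, and ATG9A, a multispanning protein of small vesicles, moves lipids between the leaflets of a bilayer. TP53INP proteins bind ATG8 family proteins such as LC3, DRAM proteins lie in lysosomal membranes, and Trp53inp1 and Dram1 are known targets of the transcription factor p53.

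The libraries held between 8447016 and 28155438 counts, and levels are given as CPM, counts divided by the TMM-scaled library size. Changes are log2 fold changes ± SE from edgeR's quasi-likelihood test, called at a Benjamini-Hochberg adjusted p under 0.05 over all 13882 genes. Levels are not set against each other between genes, because they are not per length. Carm1 stood at 53.9 and 58.6 CPM in KO-GS, 48.1 and 70.8 in KO, 176 and 164 in WT-GS, and 207 and 204 in WT libraries, so it was lower in each knockout library. The KO pair stood apart: among 9392 genes averaging 10 CPM or more, its replicates were over 2-fold apart for 1806, against 15 to 25 genes in each other group. KO replicate 1 had the lowest total, and values without it are given beside many of the results. In a fit without a KO library, the spread comes from the 3 closer pairs, the lone KO library is assumed to vary like them, and far more of all genes are called. The genotypes also differed in markers of cell identity. The fibroblast gene Dcn (decorin) had 1172 to 1954 CPM in knockout libraries and 0.37 to 0.76 CPM in wild-type libraries, and Thy1 had 124 to 180 CPM and 0.05 to 0.21 CPM. Of the same list, Col1a1 went the other way and Vim overlapped between genotypes: Col1a1 had 636 to 657 CPM in KO-GS, 804 to 1207 in KO, 1400 to 1506 in WT-GS and 2774 to 2807 in WT libraries, and Vim had 1430 to 2278 CPM in knockout and 2142 to 2764 CPM in wild-type libraries. The endothelial gene Cdh5 had 126 to 240 CPM in knockout libraries and 0 to 0.07 CPM in wild-type libraries. Pecam1 went the same way, with 3.52 to 5.54 CPM in knockout and 0.24 to 0.29 CPM in wild-type libraries. Kdr went the other way, with 0 to 0.09 CPM in knockout and 1.78 to 4.5 CPM in wild-type libraries. Emcn was at 0 in all libraries, and Tek and Vwf reached 0.22 and 0.28 CPM at most. The summed level of 10 fibroblast markers was 16900 to 17300 CPM in KO-GS, 16500 to 19800 in KO, 7920 to 8130 in WT-GS and 11300 to 11400 in WT libraries. That of 6 endothelial markers, nearly all of it Cdh5 in knockout libraries, was 242 to 245, 132 to 158, 3.87 to 5.30 and 2.09 to 2.35 CPM in the same order of groups. Summed leukocyte and epithelial markers, 6 genes each, stayed at 5.23 and 3.88 CPM at most. The part of these marker differences in the genotype results was not tested, and a difference between cell lines and one of genotype cannot be told apart.

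Promoter windows for 9 of the 10 genes, all but Trp53inp1, were found in RefSeq (build GRCm38.p6), and the 250 bases before the start site are shown for 2 pairs of genes whose levels moved together across libraries. Wdr45 and Wipi2 rose on starvation in both genotypes, and Atg2a and Atg9a were lower in KO-GS than in WT-GS cells. Sequences run 5′ to 3′ on the gene's strand, and capitals mark the GC box GGGCGG and the CCAAT box CCAAT on either strand, none of which overlapped another. The windows are chrX:7722677-7722926 (+) for Wdr45, chr5:142629334-142629583 (+) for Wipi2, chr19:6241418-6241667 (+) for Atg2a and chr1:75192011-75192260 (-) for Atg9a.
Wdr45: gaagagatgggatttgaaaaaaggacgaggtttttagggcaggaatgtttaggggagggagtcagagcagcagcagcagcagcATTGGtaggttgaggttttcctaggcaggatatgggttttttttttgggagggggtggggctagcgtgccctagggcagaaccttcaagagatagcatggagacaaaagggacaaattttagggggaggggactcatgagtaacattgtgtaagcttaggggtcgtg
Wipi2: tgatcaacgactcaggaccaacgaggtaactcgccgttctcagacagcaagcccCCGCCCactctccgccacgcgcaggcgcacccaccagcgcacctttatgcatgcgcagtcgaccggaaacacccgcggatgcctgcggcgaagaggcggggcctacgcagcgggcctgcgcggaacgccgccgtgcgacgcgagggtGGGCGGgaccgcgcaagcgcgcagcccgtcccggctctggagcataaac
Atg2a: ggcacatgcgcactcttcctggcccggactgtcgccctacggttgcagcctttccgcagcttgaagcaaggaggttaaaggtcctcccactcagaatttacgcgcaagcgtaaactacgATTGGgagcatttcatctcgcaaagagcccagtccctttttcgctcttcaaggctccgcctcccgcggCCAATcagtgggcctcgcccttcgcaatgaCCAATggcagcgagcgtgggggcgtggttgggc
Atg9a: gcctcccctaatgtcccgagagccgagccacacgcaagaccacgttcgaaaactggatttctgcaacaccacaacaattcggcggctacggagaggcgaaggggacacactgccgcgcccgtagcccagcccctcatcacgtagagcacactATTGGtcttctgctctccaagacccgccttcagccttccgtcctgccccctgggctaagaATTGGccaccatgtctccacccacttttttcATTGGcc
The windows of Atg2a and Atg9a each held 3 CCAAT boxes and 0 GC boxes, that of Wdr45 held 1 CCAAT box, and that of Wipi2 held 2 GC boxes. GC content was 49.6% for Wdr45, 69.6% for Wipi2, 59.6% for Atg2a and 58.8% for Atg9a. Among the 9 windows 6 held a GC box and 4 a CCAAT box, against 32.7% and 33.8% of 32851 RefSeq windows of the same length. The E-box CACGTG (the core of sites for TFEB and related factors), TGATGNAA (a composite site of ATF4), GTAAACA (a FOXO site) and the p53 half-site were searched on both strands, and 0 of the 9 windows held any of them. These motifs were found in 6.02%, 3.45%, 3.17% and 7.13% of all windows, in that order. A match or its lack in such a window describes its letters only.

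**Figure D1:**
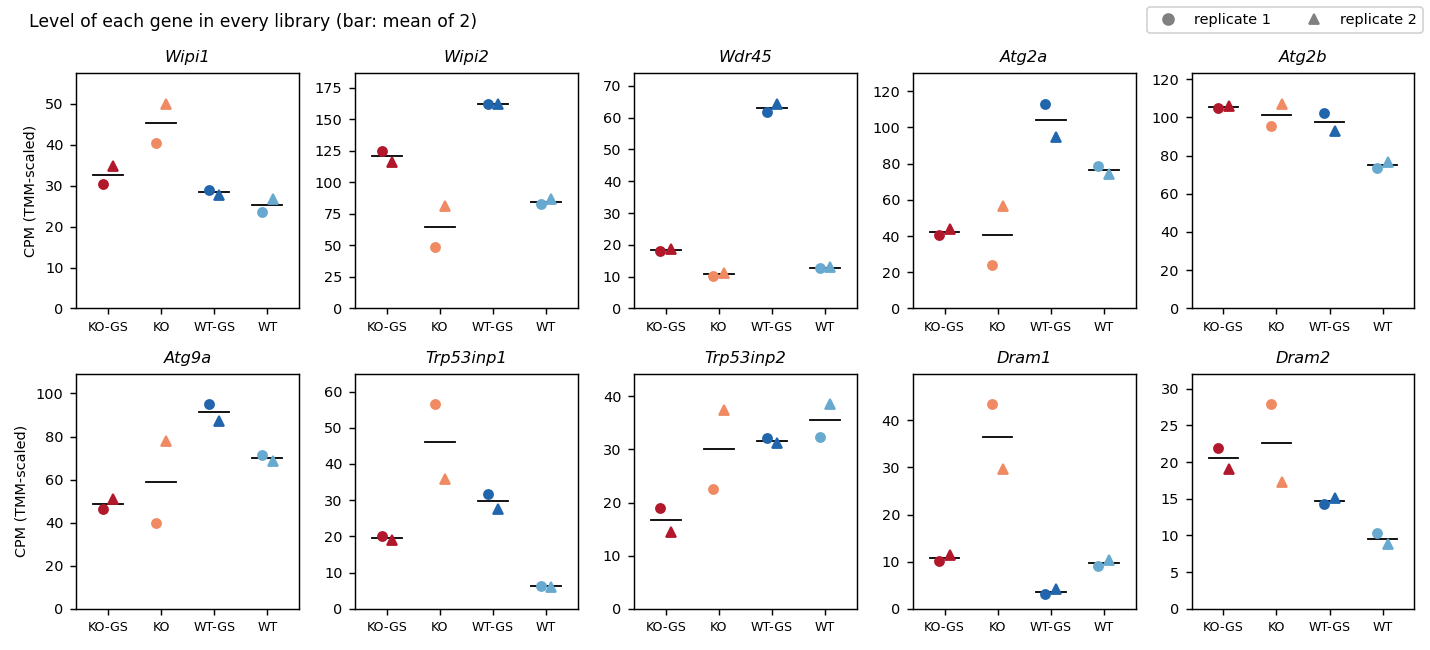
Level of each gene (CPM on TMM-scaled library sizes, linear axis from 0) in the 8 libraries, by group, with a bar at the mean of 2. Wdr45 stands at 61.7 and 64.3 CPM in WT-GS libraries and at 18.6 CPM or less elsewhere, and KO replicates lie far apart for several genes.

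Glucose starvation changed 4 of the 10 genes in each genotype, and these were Wipi2, Wdr45, Trp53inp1 and Dram1 in both. Wipi2 and Wdr45 rose and Dram1 fell in KO and in WT cells, whereas Trp53inp1 fell in KO cells and rose in WT cells. In KO cells 2 rose and 2 fell, against a background of 18.2% of all genes called in either direction (8.44% higher and 9.78% lower). In WT cells 3 rose and 1 fell, against 32.9% of all genes (14.8% higher and 18% lower). The median log2 fold change was -0.20 over the 10 genes in KO cells and 0.41 in WT cells, and it was 0 over all genes in both. The replicates of starved and rich cells did not overlap for 6 of the 10 genes in KO cells and for 10 of 10 in WT cells. The same held for 55.3% and 81.7% of all genes, so the absence of overlap is common in this table. All 10 differences between the responses (KO minus WT) were negative in sign, with a median of -0.65, and 2 of them passed the test, those of Wdr45 and Trp53inp1. Of all genes, 13.3% passed that test, 7.42% on the positive and 5.91% on the negative side. The difference was positive for 6967 of all 13882 genes. Among the 10 genes, the sign changed in other settings for Wipi2, Atg2a and Dram1. These counts depend on the KO pair. Without KO replicate 1, 8 of the 10 were called for starvation in KO cells, 8 in WT cells and 8 for the difference between responses, but then 49.8%, 66.8% and 49.4% of all genes were called as well. Without KO replicate 2 the counts were 9, 8 and 7, against 59.1%, 67.2% and 56.4%, and the 7 differences between responses were 2 positive and 5 negative. Without either KO-GS library edgeR called 0 of the 10 for starvation in KO cells, with 5 and 4 at an unadjusted p under 0.05. The comparisons share libraries and are given side by side, not as independent evidence.

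**Figure D2:**
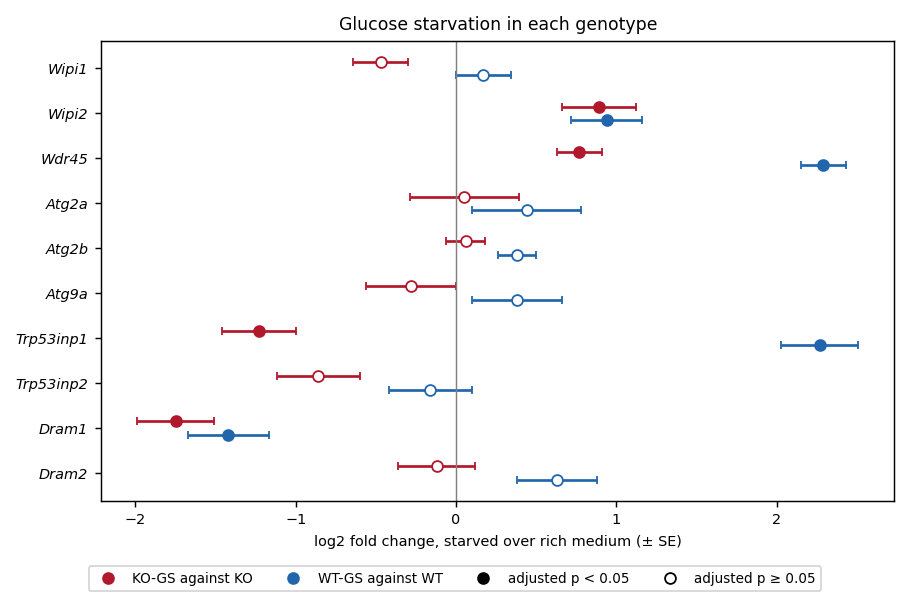
Log2 fold change ± SE of starved over rich cells for each gene, in KO (red) and WT (blue) cells, filled where the adjusted p was under 0.05. Trp53inp1 lies at -1.23 in KO cells and at 2.27 in WT cells, and Wdr45 at 0.77 and 2.29.

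Among the WIPI genes, Wdr45 gave the largest difference between genotypes in the starved state. Its product, also called WIPI4, binds ATG2 proteins. Wdr45 had 18.0 and 18.6 CPM in KO-GS, 10.2 and 11.2 in KO, 61.7 and 64.3 in WT-GS, and 12.7 and 12.9 in WT libraries. The order was WT-GS, KO-GS, WT and KO, with no overlap between neighbours. Starvation raised it by 0.77 ± 0.14 in KO cells (adjusted p = 0.0131) and by 2.29 ± 0.14 in WT cells (adjusted p = 0.000167), that is 1.71-fold and 4.91-fold. The difference between these responses was -1.52 ± 0.20 (adjusted p = 0.00469). KO-GS cells were below WT-GS cells, with a log2 fold change of -1.78 ± 0.14 (adjusted p = 6.69e-05) and a level 0.291 times that of WT-GS. In rich medium the genotypes differed by -0.26 ± 0.14 (adjusted p = 0.183), which did not pass. The rise in KO cells was not called without either KO-GS library, in a fit of the 4 knockout libraries or with limma-voom quality weights. Its neighbour within 1000 bases in RefSeq, Praf2, changed by -0.15 ± 0.14 on starvation in KO cells and 0.05 ± 0.14 in WT cells, neither of which passed. Wdr45 lies on the X chromosome, and Xist, the RNA of the inactive X, had 0 to 6 counts in knockout libraries and 18657 to 23751 in wild-type libraries. The part of this difference in the Wdr45 result was not tested.

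Wipi2, whose product recruits ATG16L1 to the forming autophagosome, rose in both genotypes. It had 125 and 116 CPM in KO-GS, 48.5 and 81.2 in KO, 162 and 162 in WT-GS, and 82.4 and 86.6 in WT libraries. Starved libraries lay above rich ones in both genotypes, and knockout libraries below wild-type ones in both media. The rise was 0.89 ± 0.23 in KO cells (adjusted p = 0.0358) and 0.94 ± 0.22 in WT cells (adjusted p = 0.0185), with a difference of -0.05 ± 0.32 (adjusted p = 0.975). That difference was -0.32 without KO replicate 1 (adjusted p = 0.00604) and 0.39 without KO replicate 2 (adjusted p = 0.00335), called in opposite directions, so the data do not settle whether the rises differed. The rise in KO cells was 0.59 without KO replicate 1 and 1.32 without KO replicate 2. The call in KO cells was lost in 9 of 19 other settings, and the call in WT cells without any of the 4 wild-type libraries in turn. The genotype differences, -0.42 ± 0.22 starved and -0.38 ± 0.22 in rich medium, did not pass (adjusted p = 0.146 and 0.211). The first was called without KO replicate 1 (-0.42, adjusted p = 2.03e-08), and the second was -0.10 without it (adjusted p = 0.255) and -0.81 without KO replicate 2.

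Wipi1, which like Wipi2 binds phosphoinositides on early autophagic membranes, was higher in KO than in WT cells in rich medium. It had 30.4 and 34.8 CPM in KO-GS, 40.5 and 50.0 in KO, 28.9 and 27.8 in WT-GS, and 23.6 and 26.8 in WT libraries. The KO libraries were highest and lay apart from each other group. The difference between KO and WT was 0.85 ± 0.17 (adjusted p = 0.00622), lost without WT replicate 1 and in a fit of only those 4 libraries. Starvation gave -0.47 ± 0.17 in KO cells (adjusted p = 0.0924) and 0.17 ± 0.17 in WT cells (adjusted p = 0.478), and neither passed. After starvation KO-GS and WT-GS cells differed by 0.20 ± 0.17 (adjusted p = 0.331), or 0.21 without KO replicate 1 (adjusted p = 0.0412). Without KO replicate 1 the values in KO cells were -0.59 for starvation (adjusted p = 9.58e-06) and 0.94 against WT (adjusted p = 2.44e-10).

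The lipid supply genes did not pass the test for starvation in either genotype with all 8 libraries, but 2 of the 3 were lower in starved KO than in starved WT cells. Atg2a, one of the paralogous lipid carriers, had 40.8 and 44.0 CPM in KO-GS, 24.1 and 56.7 in KO, 113 and 94.7 in WT-GS, and 78.8 and 74.4 in WT libraries. Each knockout library lay below each wild-type library, and the KO pair spanned the KO-GS pair. Atg2a was lower in KO-GS than in WT-GS cells, with a log2 fold change of -1.29 ± 0.35 (adjusted p = 0.0159), a call lost without WT-GS replicate 1 or either KO-GS library. In rich medium the difference of -0.90 ± 0.34 did not pass (adjusted p = 0.0693), but it passed in 4 of 19 other settings, DESeq2 among them. It was -0.47 without KO replicate 1 and as low as -1.67 in the other settings. The starvation change was 0.05 ± 0.34 in KO cells (adjusted p = 0.951) and 0.44 ± 0.34 in WT cells (adjusted p = 0.36), the value in WT cells passing in 4 of 19 other settings (0.42 without KO replicate 1, adjusted p = 9.42e-07). In KO cells it was -0.40 without KO replicate 1 and 0.82 without KO replicate 2, so no direction can be given.

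Atg9a, the membrane protein of the vesicles that seed autophagosomes, followed a pattern close to that of Atg2a. It had 46.3 and 50.9 CPM in KO-GS, 39.7 and 77.7 in KO, 95.0 and 87.4 in WT-GS, and 71.4 and 68.6 in WT libraries. WT-GS libraries were highest, and the KO pair overlapped both the KO-GS and the WT pair. Atg9a was lower in KO-GS than in WT-GS cells, with a log2 fold change of -0.91 ± 0.28 (adjusted p = 0.0281), a call lost without any one of the KO-GS, WT-GS or WT libraries. The other differences did not pass: -0.28 ± 0.28 for starvation in KO cells (adjusted p = 0.518), 0.38 ± 0.28 in WT cells (adjusted p = 0.333) and -0.24 ± 0.28 between KO and WT (adjusted p = 0.506). The change in WT cells passed in 4 of 19 other settings (0.36 without KO replicate 1, adjusted p = 6.81e-06), and the difference between KO and WT was 0.11 without KO replicate 1 (adjusted p = 0.248) and -0.82 without KO replicate 2. The starvation change in KO cells was -0.66 without KO replicate 1 and 0.30 without KO replicate 2, so no direction can be given. Pearson's r between Atg2a and Atg9a over the 8 libraries was 0.95 on the log2 CPM scale. This was the highest of the 45 pairs among the 10 genes. Both genes were lower in KO replicate 1 than in KO replicate 2, with log2 ratios of -1.23 and -0.97. The part of this gap in r was not tested. The neighbours Abcb6 and Ankzf1, each within 1000 bases of Atg9a in RefSeq, were higher in KO-GS than in WT-GS cells (1.10 ± 0.23 and 0.70 ± 0.18), opposite to Atg9a.

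Atg2b, the other ATG2 paralog, was not lower in knockout cells. It had 105 and 106 CPM in KO-GS, 95.6 and 107 in KO, 102 and 92.6 in WT-GS, and 73.3 and 76.7 in WT libraries. WT libraries were the lowest, and the other 3 groups lay close together. KO cells were above WT cells by 0.43 ± 0.12 (adjusted p = 0.0271), a call lost in 10 of 19 other settings. Starved genotypes differed by 0.12 ± 0.12 (adjusted p = 0.446). The starvation change was 0.06 ± 0.12 in KO cells (adjusted p = 0.76) and 0.38 ± 0.12 in WT cells (adjusted p = 0.0537), and neither passed. The value in WT cells passed in 6 of 19 other settings, DESeq2 and limma-voom among them (0.35 without KO replicate 1, adjusted p = 4.74e-06).

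**Figure D3:**
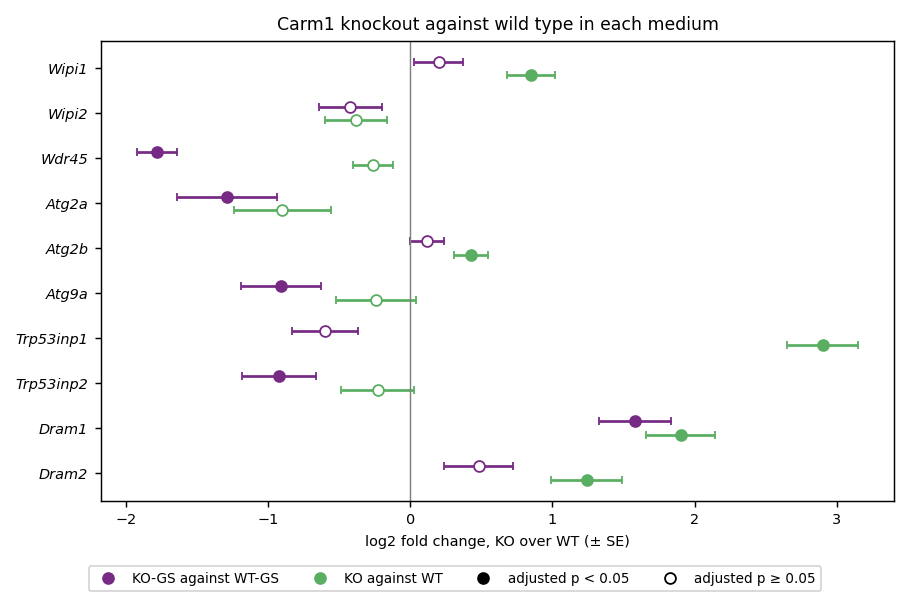
Log2 fold change ± SE of KO over WT cells for each gene, starved (purple) and in rich medium (green), filled where the adjusted p was under 0.05. Trp53inp1 lies at 2.90 in rich medium and at -0.60 after starvation, while Dram1 is above 0 in both.

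Between the genotypes, 5 of the 10 genes differed after starvation and 5 in rich medium, and Dram1 was the one called in both. After starvation Dram1 was higher and Wdr45, Atg2a, Atg9a and Trp53inp2 were lower in KO-GS than in WT-GS cells. The background was 54.6% of all genes called in either direction, 27.8% higher and 26.8% lower. In rich medium Wipi1, Atg2b, Trp53inp1, Dram1 and Dram2 were higher and 0 lower in KO than in WT cells, against a background of 44% of all genes, 23.4% higher and 20.6% lower. The shares of 5 in 10 are thus near the background in both media. Replicates of the genotypes did not overlap for 10 of 10 genes after starvation and 8 of 10 in rich medium, against 89.6% and 69.9% of all genes. The median log2 fold change over the 10 genes was -0.51 starved and 0.10 in rich medium, beside -0.02 and 0 over all genes. Without KO replicate 1, 9 of the 10 were called after starvation and 6 in rich medium, against 80.2% and 65.8% of all genes. Without KO replicate 2 both counts were 9, against 80.3% and 72.7%. Of the libraries left out 1 at a time, WT replicate 1 or 2 lowered the count in rich medium most. After starvation WT-GS replicate 1 or KO-GS replicate 2 did so. The number of all genes called fell in the same fits.

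Trp53inp1, a stress-induced p53 target whose product binds LC3, had the largest change of the 10 genes between KO and WT in rich medium. It had 20.1 and 19 CPM in KO-GS, 56.5 and 35.8 in KO, 31.8 and 27.5 in WT-GS, and 6.27 and 6.03 in WT libraries. The order was KO, WT-GS, KO-GS and WT, with no overlap between neighbours. KO cells were above WT cells by 2.90 ± 0.25 (adjusted p = 0.000142), 7.46-fold. On starvation it fell by 1.23 ± 0.23 in KO cells (adjusted p = 0.0135) and rose by 2.27 ± 0.24 in WT cells (adjusted p = 0.000931). These responses differed by -3.50 ± 0.33 (adjusted p = 0.00181). After starvation the difference of -0.60 ± 0.23 between the genotypes did not pass (adjusted p = 0.058), but it passed in 7 of 19 other settings, among them limma-voom, total counts and a fit without KO replicate 1 (adjusted p = 9.29e-07). Without KO replicate 1 the fall in KO cells was -0.85 (adjusted p = 7.05e-08) and the excess over WT 2.50 (adjusted p = 5.57e-22). The fall in KO cells was not called without either KO-GS library or in a fit of the 4 knockout libraries. The 2 transcript rows of the gene held nearly equal totals, 4070 and 4052 counts.

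Trp53inp2, which in muscle and other cells moves to autophagosomes and binds ATG8 proteins, was not called for starvation in either genotype. It had 18.9 and 14.5 CPM in KO-GS, 22.6 and 37.4 in KO, 32.1 and 31.2 in WT-GS, and 32.4 and 38.5 in WT libraries. KO-GS libraries were the lowest, and the KO pair overlapped the WT pair. Trp53inp2 was lower in KO-GS than in WT-GS cells, with a log2 fold change of -0.92 ± 0.26 (adjusted p = 0.02), a call lost without either WT-GS library or KO-GS replicate 2. Starvation gave -0.86 ± 0.26 in KO cells (adjusted p = 0.0638) and -0.16 ± 0.26 in WT cells (adjusted p = 0.666). The value in KO cells passed in 6 of 19 other settings, among them DESeq2 and a fit without KO replicate 1 (-1.14, adjusted p = 9.17e-11). In rich medium the genotypes differed by -0.23 ± 0.26 (adjusted p = 0.5). The value was 0.03 without KO replicate 1 and as low as -0.66 in the other settings, and it passed in 1 of 19.

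Dram1, a p53-induced lysosomal membrane protein, fell on starvation in both genotypes and was higher in knockout cells in both media. It had 10.2 and 11.4 CPM in KO-GS, 43.4 and 29.6 in KO, 3.15 and 4.09 in WT-GS, and 9.01 and 10.4 in WT libraries. KO libraries were the highest and WT-GS libraries the lowest, and the KO-GS and WT pairs overlapped. The fall was -1.75 ± 0.24 in KO cells (adjusted p = 0.00497) and -1.42 ± 0.25 in WT cells (adjusted p = 0.00588), and the difference of -0.32 ± 0.34 did not pass (adjusted p = 0.585). That difference was 0.02 without KO replicate 1 and as low as -0.57 in the other settings. It passed in 1 of 18 other settings, so the data do not settle whether the falls differed. KO-GS cells were above WT-GS cells by 1.58 ± 0.25 (adjusted p = 0.00166), and KO above WT cells by 1.90 ± 0.24 (adjusted p = 0.000899), 2.99-fold and 3.73-fold. The fall in WT cells was lost without WT-GS replicate 1 or WT replicate 2, and that in KO cells without either KO-GS library or in a fit of the 4 knockout libraries. In RefSeq Dram1 overlaps Washc3, listed in the count table as Ccdc53. That gene changed by -0.01 ± 0.18 on starvation in KO cells and rose by 0.62 ± 0.18 in WT cells. Without the strand of counting, reads from where these genes overlap cannot be told apart, and the Dram1 values are less certain.

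Dram2, a relative of DRAM1 that also lies in lysosomal membranes, was higher in KO than in WT cells in rich medium. It had 21.9 and 19.1 CPM in KO-GS, 27.9 and 17.3 in KO, 14.3 and 15.1 in WT-GS, and 10.3 and 8.77 in WT libraries. Each knockout library was above each wild-type library, and the KO pair spanned the KO-GS pair. KO exceeded WT by 1.24 ± 0.25 (adjusted p = 0.00684), or 0.83 without KO replicate 1. The call was lost without WT replicate 2 and in a fit of only the 4 KO and WT libraries. The difference after starvation, 0.48 ± 0.24, did not pass (adjusted p = 0.13), nor did the starvation changes of -0.12 ± 0.24 in KO cells (adjusted p = 0.767) and 0.63 ± 0.25 in WT cells (adjusted p = 0.0916). Without KO replicate 1 these were 0.49, 0.27 and 0.61. The first and the last each passed in 4 of 19 other settings. The change in KO cells was as low as -0.43 in the other settings, so no direction can be given for it. Dram2 overlaps Cept1, a phospholipid synthesis gene, in RefSeq. Cept1 was also higher in knockout cells, by 1.04 ± 0.15 starved and 1.36 ± 0.16 in rich medium, and it rose by 0.74 ± 0.16 on starvation of WT cells. As no source used here gives the strand of counting, reads of these overlapping genes cannot be told apart, and the Dram2 values are less certain.

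**Figure D4:**
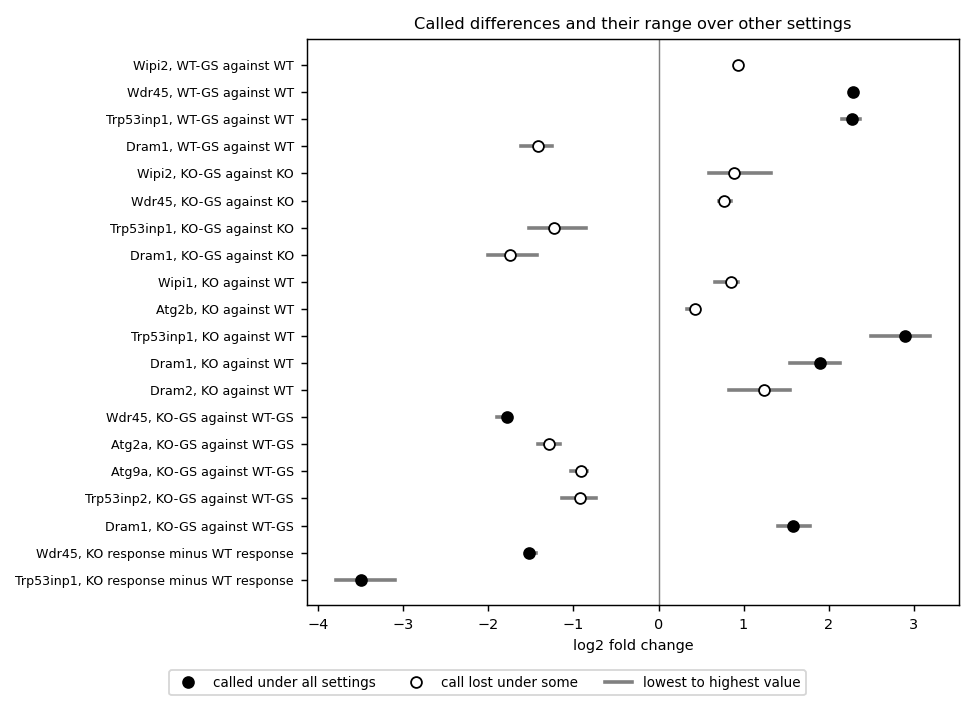
The 20 differences of the 10 genes called at an adjusted p under 0.05, as log2 fold changes, with a grey line from the lowest to the highest value over up to 19 other settings. Filled points kept the call under every setting run, which was so for 8 of the 20, and all 20 kept their direction.

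The other autophagy genes, a list of 33 that all passed the filter, moved on starvation mostly upward in WT cells and in both directions in KO cells. In KO cells 4 rose and 3 fell (median 0.12), and in WT cells 15 rose and 1 fell (median 0.56), against the backgrounds given above. The responses differed in 10 of the 33, all lower in KO cells, with a median difference of -0.35. Of all genes 13.3% passed that test, 5.91% on the negative side. More of the 33, and more of all genes, were called in fits without KO replicate 1 or 2. The called differences between responses then had both signs, most of them negative in each fit. The cargo receptor Nbr1 (-1.60 ± 0.19, adjusted p = 0.00333), the phosphatidylinositol 3-kinase Pik3c3 (-1.54 ± 0.19, adjusted p = 0.00394) and the ATG8 protein Gabarapl1 (-1.41 ± 0.19, adjusted p = 0.00472) had the smallest p. Between genotypes 5 were higher and 15 lower after starvation (median -0.44), beside 27.8% and 26.8% of all genes. In rich medium 5 were higher and 4 lower (median -0.10), beside 23.4% and 20.6% of all genes. Fits without KO replicate 1 or 2 called more of the 33 in each direction in rich medium. After starvation Calcoco1, a selective autophagy receptor, averaged 22.9 ± 1.71 CPM in KO-GS and 123 ± 3.58 CPM in WT-GS cells (SD, n = 2 each). Atg14, a subunit of the phosphatidylinositol 3-kinase complex, averaged 7.55 ± 0.946 CPM in KO-GS and 46.8 ± 0.0334 CPM in WT-GS cells. The receptor Optn went the other way, at 180 ± 9.78 CPM in KO-GS and 39.6 ± 0.654 CPM in WT-GS cells. By role, of the 8 members of the kinase complex 0 were higher and 6 lower in KO-GS than in WT-GS cells, of the 5 initiation genes 1 was higher and 3 lower, and of the 10 conjugation genes 2 were higher and 1 lower. Of the 5 ATG8 genes 1 was higher and 3 lower, and of the 5 receptors 1 was higher and 2 lower, beside 27.8% of all genes higher and 26.8% lower.

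Trp53inp1 and Dram1 are p53 targets, and 21 other known targets were tested beside them. Between KO and WT in rich medium 8 of these were higher and 6 lower, and after starvation 10 were higher and 6 lower, beside 44% and 54.6% of all genes called. Fits without KO replicate 1 or 2 called more of them in each direction, and more of all genes, in both media. In rich medium the higher ones outnumbered the lower ones without KO replicate 1 but not without KO replicate 2. The death receptor Fas averaged 62.4 ± 4.38 CPM in KO and 4.39 ± 0.295 CPM in WT cells, and the receptor Eda2r 37.5 ± 8.90 and 1.39 ± 0.202 CPM (SD, n = 2 each). Perp, a membrane protein of cell death and adhesion, had 0 counts in KO libraries and 1683 in WT libraries, and was at least 336-fold lower in KO cells, computed against 3 counts over the group. Pmaip1, a pro-apoptotic protein, had 0 counts in KO-GS libraries and 1655 in WT-GS libraries, at least 492-fold lower. Bounds of this kind cover counting error only. On starvation 4 p53 targets rose and 2 fell in KO cells, and 8 rose and 2 fell in WT cells, beside 18.2% and 32.9% of all genes called. Leaving out KO replicate 1 gave 7 and 4 in KO cells and 12 and 3 in WT cells, beside 49.8% and 66.8%. Plk2, a stress-induced kinase, rose by 2.46 ± 0.14 in KO cells and fell by 1.47 ± 0.13 in WT cells, the reverse of Trp53inp1. Of 12 targets of ATF4, the transcription factor of the integrated stress response, 7 rose and 0 fell in KO cells and 11 rose and 0 fell in WT cells on starvation, or 9 and 1 in KO cells and 12 and 0 in WT cells without KO replicate 1. The responses differed in 5 of the 12, 1 on the positive and 4 on the negative side, beside 13.3% of all genes. Among the 4 was Ddit3, a transcription factor of the same pathway (-1.51 ± 0.21, adjusted p = 0.00554). Fits without KO replicate 1 or 2 called more of the differences on each side, and more of all genes.

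The genes whose log2 CPM most resembled that of each member over the 8 libraries were sought among 9973 others with a mean of at least 5 CPM. The points share libraries and fall into 4 groups, so r is a description. For Wdr45 they were Apobr (r = 0.995) and the serine synthesis enzyme Psat1 (r = 0.993). Apobr averaged 18.3 CPM in KO-GS, 11.9 in KO, 69.4 in WT-GS and 14.9 in WT cells. For Trp53inp1 they were Asb7 (r = 0.979) and the glycosyltransferase Alg11 (r = 0.977). For Dram1 they were the aminopeptidase Npepps (r = 0.996) and Net1 (r = 0.994). Npepps averaged 148 CPM in KO-GS, 233 in KO, 96.0 in WT-GS and 144 in WT cells. For Atg2a they were Sidt2 and Usp20 (r = 0.996 and 0.992), and for Atg9a Wdr90 and Msx1as (r = 0.995 and 0.990). Within the 10 genes, Wdr45 and Wipi2 moved together (r = 0.87), and both ran opposite to Dram1 (r = -0.86 and -0.89).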

How the data were processed

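RNA-seq libraries of 4 groups were used, 2 each, and 4 chromatin immunoprecipitation and input libraries of the series were not analysed here. The deposited values are the authors' unnormalised counts, 1 row for each RefSeq transcript. Reads were aligned with TopHat2 2.0.9 to mm9 and bedtools was used, per the submitters' processing notes. No source used here gives the strand setting or the treatment of reads with several matches. Of 31055 transcript rows, 1 per symbol (the highest total) was kept. Genes were filtered with filterByExpr, scaled by TMM and fitted with edgeR 4.0.16 (R 4.3.3) with a mean per group over all 8 libraries (biological coefficient of variation 18.5%). The quasi-likelihood test was used with Benjamini-Hochberg adjustment, and the SE is the log2 fold change divided by the square root of F. At the lowest and highest depth 3 counts are 0.355 and 0.107 CPM. The 10 genes, the lists and the other settings (DESeq2 1.42.0, limma 3.58.1 and others) were chosen with earlier results of these data known. Named genes were the members, Carm1, their relatives, the 3 smallest p per list and comparison, and the 2 most similar genes per member, of which some are not reported here. Cdh5, Pecam1, Kdr, Emcn, Tek, Vwf, Dcn, Thy1, Col1a1, Vim, Xist and the neighbours were chosen after their values were seen. Replicate numbers were not shown to pair the libraries. Correlations of deviations ran from -0.07 to 0.23, and with only 2 libraries per group they cannot exclude a pairing.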

Additional observations from a re-analysis of the deposited data

Results flagged for a closer look

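The starvation response of Wdr45 and of Trp53inp1 differed between the genotypes by the test of the difference itself. For Wdr45 the KO response minus the WT response was -1.52 (adjusted p = 0.00469), from 0.77 in KO cells and 2.29 in WT cells. For Trp53inp1 it was -3.50 (adjusted p = 0.00181), from -1.23 in KO cells and 2.27 in WT cells. Both kept the call in 18 of 18 other settings, with values from -1.56 to -1.44 for Wdr45 and from -3.79 to -3.10 for Trp53inp1.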

How the results depend on the processing

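With 2 libraries per group, of which the KO pair is far apart, most calls depend on the libraries that enter the fit. All 20 called differences kept their direction, 8 of 20 kept the call in every setting, and of 30 without a call 25 gained one in at least 1 setting. Without 1 library in turn, the number of the 10 genes called ranged from 0 to 9 for starvation in KO cells (0 without KO-GS replicate 1 or replicate 2, 9 without KO replicate 2) and from 2 to 8 in WT cells. It ranged from 2 to 9 for KO-GS against WT-GS, from 3 to 9 for KO against WT, and from 2 to 8 for the difference between responses. The fit of only the 4 libraries compared gave 0, 8, 9 and 2 genes for the first 4 of these, and limma-voom with quality weights 2 for starvation in KO cells, 8 in WT cells and 8 for KO-GS against WT-GS. Where edgeR called 0, 4 or 5 of the 10 had an unadjusted p under 0.05, and DESeq2 on all libraries called 6.

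Over all genes the counts as reported were 2528 for starvation in KO cells, 4561 in WT cells, 7586 for KO-GS against WT-GS, 6114 for KO against WT and 1850 for the difference between responses. Without 1 library they ran from 265 to 8409, 1580 to 9561, 5127 to 11435, 3369 to 10336 and 452 to 8020. The fit of 4 libraries gave 0 (2803 at an unadjusted p under 0.05), 9332, 11038 and 3245, quality weights 1316, 9393 and 3748 (KO against WT), and DESeq2 2872 for the difference between responses.

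The sign changed for 9 of the 30 differences without a call. For starvation in KO cells Atg2a was -0.01 with total counts, -0.11 with quality weights and -0.40 without KO replicate 1 (highest without a library 0.82). Dram2 was 0.09 with quality weights and 0.27 without KO replicate 1 (lowest -0.43), and Atg9a ran from -0.66 to 0.30. For KO against WT Atg9a ran from -0.82 to 0.11 and Trp53inp2 from -0.66 to 0.03. Atg2b was 0 for KO-GS against WT-GS with total counts. The difference between responses ran from -0.32 to 0.39 for Wipi2, from -0.82 to 0.38 for Atg2a and from -0.57 to 0.02 for Dram1. The cause was not tested. The replicate block, a number shared but not shown to pair the libraries, gave 4, 4, 6, 5 and 2 genes in the order of the paragraph above.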

Other observations

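Of 6 close relatives of these genes, 3 differed between the genotypes after starvation and 3 in rich medium, namely Atg9b, Tmem41b and Vmp1, beside 54.6% and 44% of all genes called. Atg9b, the paralog of Atg9a, averaged 19.1 ± 0.167 CPM in KO-GS, 16.5 ± 5.10 in KO, 2.39 ± 0.104 in WT-GS and 0.634 ± 0.0895 in WT cells (SD, n = 2 each). It was higher in knockout cells by 3.00 ± 0.26 starved (adjusted p = 9.64e-05) and by 4.72 ± 0.30 in rich medium (adjusted p = 4.04e-05). On starvation Atg9b changed by 0.19 ± 0.23 in KO and by 1.92 ± 0.31 in WT cells, from only 15 and 16 counts in WT libraries. These responses differed by -1.72 ± 0.39 (adjusted p = 0.0299). Of the 6 relatives 1 passed that test, beside 13.3% of all genes. The scramblase Tmem41b was lower in knockout cells, with log2 fold changes of -1.64 ± 0.13 starved and -1.15 ± 0.13 in rich medium (adjusted p = 7.88e-05 and 0.000578). The scramblase Vmp1 was higher, by 0.80 ± 0.22 and 1.79 ± 0.22 (adjusted p = 0.0168 and 0.000745). Wdr45b, the paralog of Wdr45, averaged 102 ± 5.36 CPM in KO-GS, 84.3 ± 1.96 in KO, 104 ± 0.128 in WT-GS and 77.2 ± 4.54 in WT cells. Its starvation responses, 0.27 ± 0.12 in KO and 0.43 ± 0.12 in WT cells, differed by -0.15 ± 0.17 (adjusted p = 0.589), beside -1.52 ± 0.20 for Wdr45. Tmem150a, a relative of the DRAM genes, rose on starvation by 1.31 ± 0.25 in KO cells (adjusted p = 0.0147) and by 1.34 ± 0.25 in WT cells (adjusted p = 0.0068). Tmem150b, another relative, passed none of these tests.

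Wdr45 is 1 of 452 tested genes on the X chromosome. Of these, 164 were higher and 97 lower in KO-GS than in WT-GS cells, and 152 were higher and 63 lower in KO than in WT cells, with median log2 fold changes of 0.19 and 0.37. Over all genes 27.8% were higher and 26.8% lower in KO-GS than in WT-GS cells, and 23.4% higher and 20.6% lower in KO than in WT cells. The part of the X chromosome in the Wdr45 values was not tested.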
